A study of Mus musculus with 14 samples.

Results

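The genes described here copy DNA during S phase of the cell cycle. They are 40 mouse genes listed by name, from the factors that mark replication origins to the enzymes that make deoxynucleotides. Each gene was read from the array probe annotated to that gene alone, and the brightest such probe on average was used where a gene had several. This gave 39 of the 40 genes, among 22180 genes with such a probe. The only probe for Rfc4, a clamp loader subunit, is shared with Eif4a2, so Rfc4 was not measured. All 39 lay above the median of the whole table (3.88 on the log2 scale) on at least 3 arrays, as did 13805 genes in all, and were tested.

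The cells were Sca1+/cKit- bone marrow cells, taken by flow sorting straight into lysis buffer. There were 4 groups of female NCR-NU mice: old tumour-bearing (n = 3), old cancer-free (n = 5), young tumour-bearing (n = 3) and young cancer-free (n = 3). Tumour-bearing mice carried primary tumours matched for size, and cancer-free mice carried control Matrigel, a basement membrane gel. All groups share the nude background, which leaves mice without a thymus. Ages are labelled only as old or young, and the sources used here do not name the kind of tumour. Each of the 14 arrays is labelled as a biological replicate of its own mouse, and 500 pg of total RNA per sample was amplified before hybridisation. All levels below are log2 RMA values, so a difference of 1 is a doubling, and levels of different genes come from different probes and are not compared.

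Replication begins when the origin recognition complex, Cdc6 and Cdt1 load rings of the Mcm proteins onto origins in G1. In S phase Cdc45 and the GINS proteins turn these rings into moving helicases, polymerase alpha with primase starts each strand, and the epsilon and delta polymerases extend it behind the Pcna clamp. Cells that leave the cycle shut most of these genes off, and E2F transcription factors switch them on again as cells approach S phase. In bone marrow such genes therefore mark dividing cells, of whatever type. In a bulk sample, fewer dividing cells and less of each transcript per cell cannot be told apart.

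Of the 2 markers of the sort only Kit could be read: its protein is excluded, and its transcript gave levels of 5.25 to 7.03. Ly6a, which encodes Sca1, was not analysed here. Ptprc, which encodes the leukocyte antigen CD45 and is no marker of the sort, lay between 10.53 and 11.36 on all arrays. Array medians were 3.87 to 3.93 on old arrays and 3.81 to 3.88 on young arrays, so they leaned higher in old mice. The mean correlation of an array with the others over all 41345 probes was between 0.908 (young tumour-bearing replicate 1) and 0.941 (young cancer-free replicate 1).

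Replication genes lay lower in old than in young mice, averaged over both host states. The difference was negative for 37 of 39 genes, with a median of -0.59, while 52.0% of all 13805 genes had a negative difference and their median was -0.01. In limma's moderated test, 25 of the 39 were lower at an unadjusted p under 0.05 and 0 were higher, against 8.97% of all genes lower and 4.44% higher. None of the 39 passed an adjusted p of 0.05, which 12 genes of the whole table did (0.0869%). Over all 14 arrays 0 of the 39 had every old array below every young one, as 0.398% of all genes did.

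The 5 genes nearest to the threshold were Pola1, Mcm3 and Mcm4, with limma adjusted p-values of 0.0567, 0.0587 and 0.0768, and Esco2 and Pole, at 0.0874 each. Esco2 passed the filter of 3 arrays above 3.88 only through the young cancer-free group, where it was high. It is also one of the 25 lower genes. Without old tumour-bearing replicate 3 the count past the threshold was 4, without old cancer-free replicate 3 it was 1, and without any other single array it was 0.

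Array by array, the mean of the 39 levels, each taken from its own gene's mean, was -0.50, -0.49 and -0.10 in the old tumour-bearing mice and -0.12, -0.08, 0.12, -0.40 and -0.30 in the old cancer-free mice. It was 0.07, 0.23 and 0.45 in the young tumour-bearing mice and 0.50, 0.28 and 0.36 in the young cancer-free mice. Old cancer-free replicate 3 was thus the one old array above zero, and it overlapped young tumour-bearing replicate 1 only. The array on which a gene was lowest was an old one for 37 of the 39 genes, 25 of them from tumour-bearing and 12 from cancer-free mice. The highest array was a young one for 33 genes. Of the 14 arrays 8 are old, 3 from tumour-bearing and 5 from cancer-free mice, and 6 are young. The same counts over all genes were not made, so these carry no background.

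**Figure D1:**
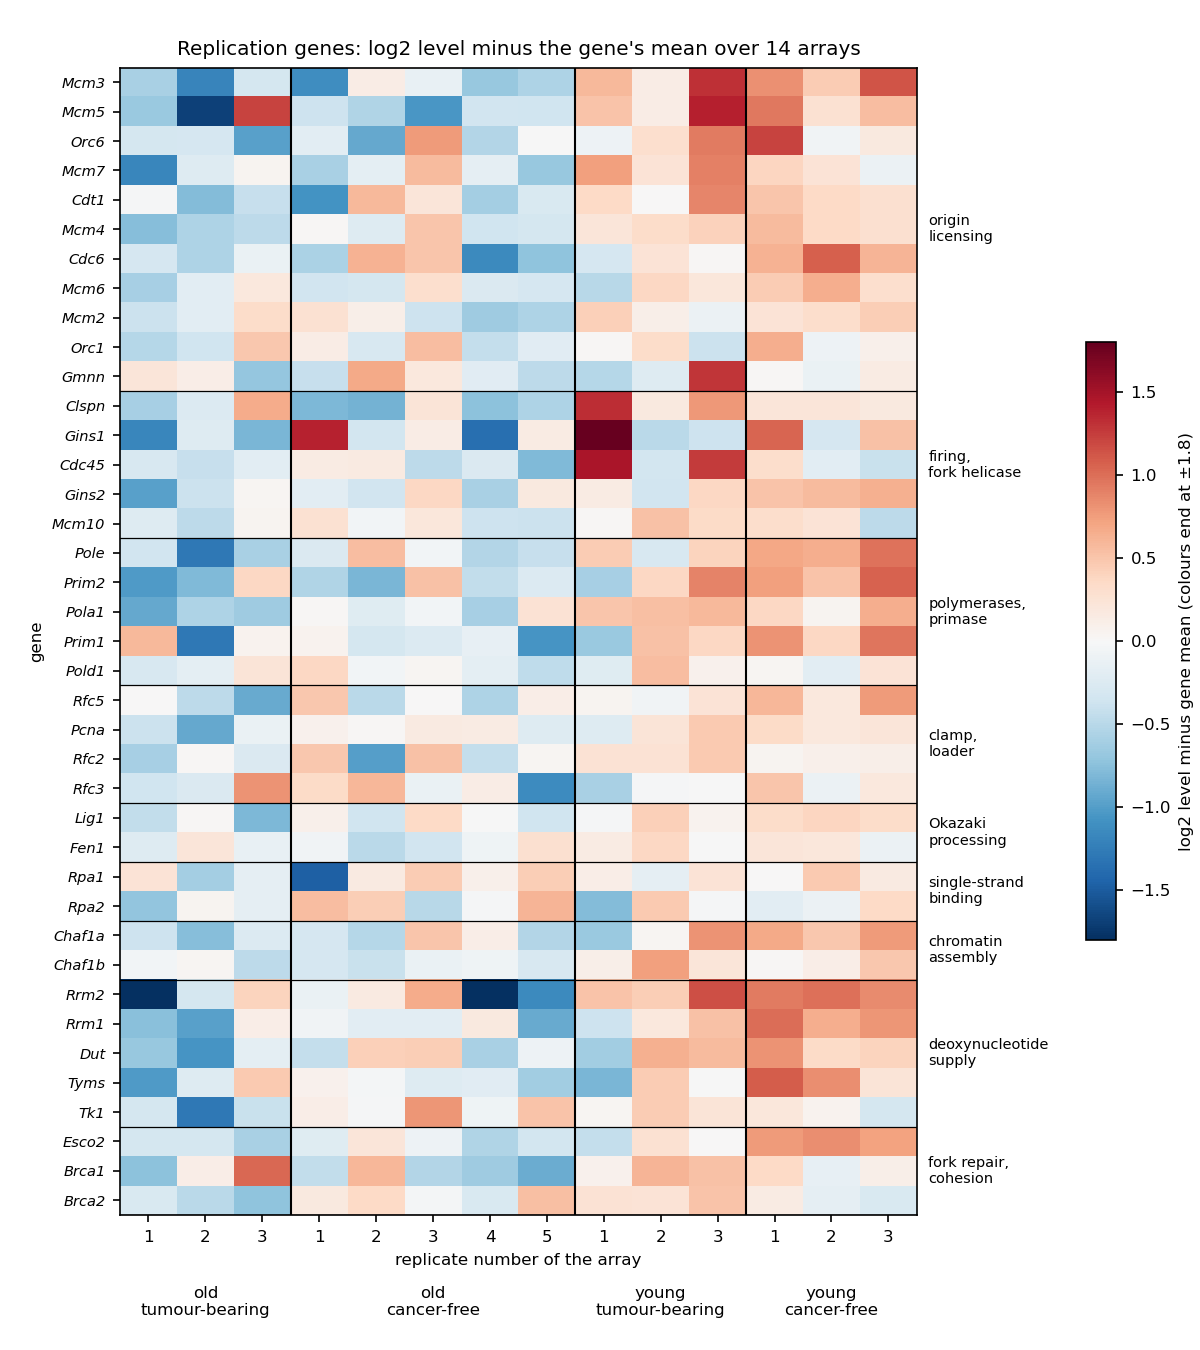
Level of each of the 39 replication genes (rows, by role) on each of the 14 arrays (columns, by group), as the log2 level minus the gene's mean over the 14 arrays. Blue marks levels below the mean and prevails on the old arrays at the left other than old cancer-free replicate 3, with 21 to 35 genes below their means, and red prevails on the 6 young arrays, with 1 to 16 below.

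Of the 11 licensing genes, which prepare origins before S phase, 9 were lower in old mice at an unadjusted p under 0.05. For all genes that share was 8.97%, here and for each role below. The median difference of the licensing genes was -0.70. Mcm3, a subunit of the helicase ring, had levels of 5.58, 4.98 and 5.84 in old tumour-bearing mice and 5.04, 6.29, 6.03, 5.48 and 5.61 in old cancer-free mice. Its levels were 6.74, 6.29 and 7.47 in young tumour-bearing mice and 6.99, 6.62 and 7.30 in young cancer-free mice. The 2 ages met at a single pair of arrays, near 6.29. The difference was -1.32 ± 0.24 (SE), which is a level 0.4 times that of the young, and it did not pass (limma adjusted p = 0.0587).

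Mcm4, another ring subunit, had 6.29, 6.50 and 6.58 in old tumour-bearing mice and 7.08, 6.82, 7.55, 6.70 and 6.74 in old cancer-free mice. Young tumour-bearing mice had 7.27, 7.39 and 7.47, and young cancer-free mice had 7.63, 7.42 and 7.35. Old cancer-free replicate 3 alone reached into the young range. The difference of -0.70 ± 0.15 (SE) did not pass (limma adjusted p = 0.0768).

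Among the other ring subunits the differences were -1.09 ± 0.36 for Mcm5, -0.73 ± 0.24 for Mcm7, -0.44 ± 0.18 for Mcm6 and -0.40 ± 0.18 for Mcm2. For the loaders they were -0.72 ± 0.25 for Cdt1, -0.67 ± 0.27 for Cdc6 and -0.77 ± 0.28 for Orc6, a subunit of the origin recognition complex. These 7 had an unadjusted p under 0.05. The remaining licensing genes were Orc1, the ATPase of that complex, at -0.19 ± 0.22 (SE) and Gmnn, whose protein geminin holds back Cdt1, at -0.18 ± 0.29 (SE), and neither difference exceeded its own error.

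Genes for origin firing and the fork helicase were lower in old mice at an unadjusted p under 0.05 for 3 of 5, with a median of -0.63. Of all genes 8.97% were lower at that level. Clspn encodes claspin, which couples the helicase to the polymerases and to the checkpoint kinase Chk1. It had 4.37, 4.72 and 5.64 in old tumour-bearing mice and 4.16, 4.12, 5.20, 4.23 and 4.41 in old cancer-free mice. Young tumour-bearing mice had 6.29, 5.15 and 5.75 and young cancer-free mice had 5.18, 5.19 and 5.14. The third old array in each host state lay in the young range and the other 6 lay below it. The difference was -0.78 ± 0.24 (SE, limma adjusted p = 0.197). Gins2, a GINS subunit, was at -0.59 ± 0.20 (SE) and Cdc45 at -0.63 ± 0.27 (SE). The difference of Gins1 was -0.74 ± 0.44 (SE), with single arrays between 2.61 and 5.79, and that of Mcm10, a helicase activator, was -0.31 ± 0.17 (SE).

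The polymerases and primase had the most negative median of the 9 roles, -0.86. Of the 5 genes 4 were lower at an unadjusted p under 0.05, against 8.97% of all genes. Pola1, the catalytic subunit of polymerase alpha, had 4.27, 4.64 and 4.56 in old tumour-bearing mice and 5.22, 4.98, 5.15, 4.60 and 5.45 in old cancer-free mice. It had 5.69, 5.73 and 5.78 in young tumour-bearing mice and 5.57, 5.24 and 5.85 in young cancer-free mice. Old cancer-free replicate 5 was the only old array above any young one. The difference of -0.86 ± 0.15 (SE) had the smallest p of the 39 genes (limma adjusted p = 0.0567).

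Pole, the catalytic subunit of the leading strand polymerase, had 4.33, 3.39 and 4.09 in old tumour-bearing mice and 4.42, 5.24, 4.63, 4.15 and 4.27 in old cancer-free mice. Its levels were 5.14, 4.39 and 5.08 in young tumour-bearing mice and 5.38, 5.34 and 5.66 in young cancer-free mice. Within each host state all old arrays were below all young arrays, though by small margins, and the difference was -0.92 ± 0.21 (SE, limma adjusted p = 0.0874). A second, dimmer Pole probe gave -0.25. The primase subunits were at -0.89 ± 0.29 (SE) for Prim2 and -0.68 ± 0.29 (SE) for Prim1. Pold1, the catalytic subunit of polymerase delta, was at -0.15 ± 0.17 (SE), within its error.

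Of the 4 measured genes of the clamp and its loader, 2 were lower at an unadjusted p under 0.05, against 8.97% of all genes. The median of the 4 was -0.40. Rfc5, a loader subunit, had 6.25, 5.77 and 5.34 in old tumour-bearing mice, 6.73, 5.76, 6.25, 5.69 and 6.37 in old cancer-free mice, 6.30, 6.18 and 6.49 in young tumour-bearing mice and 6.84, 6.44 and 7.01 in young cancer-free mice. The ages overlapped over much of the range, and the difference was -0.57 ± 0.20 (SE, limma adjusted p = 0.238). Pcna, the clamp itself, was at -0.43 ± 0.15 (SE). The other loader subunits were at -0.38 ± 0.22 (SE) for Rfc2 and 0.01 ± 0.27 (SE) for Rfc3, whose sign changed with the scaling (-0.04 with each array centred on its median).

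The genes that join Okazaki fragments, the short pieces of the lagging strand, were Lig1 and Fen1. Lig1, the DNA ligase, had 5.87, 6.33 and 5.51 in old tumour-bearing mice, 6.40, 5.96, 6.67, 6.31 and 5.96 in old cancer-free mice, 6.29, 6.74 and 6.38 in young tumour-bearing mice and 6.64, 6.70 and 6.65 in young cancer-free mice. The 4 lowest arrays were all old and 4 other old arrays lay in the young range, for a difference of -0.48 ± 0.16 (SE, limma adjusted p = 0.23). Fen1, the nuclease that trims flaps, was at -0.23 ± 0.15 (SE), and a second, dimmer Fen1 probe gave -0.10.

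Rpa1 and Rpa2, which coat single-stranded DNA, had no unadjusted p under 0.05 for age. Rpa1 had 6.75, 5.90 and 6.35 in old tumour-bearing mice, 5.03, 6.67, 6.96, 6.60 and 6.95 in old cancer-free mice, 6.62, 6.34 and 6.75 in young tumour-bearing mice and 6.51, 6.98 and 6.67 in young cancer-free mice. Old cancer-free replicate 1 stood far below all others, and the difference was -0.26 ± 0.28 (SE, limma adjusted p = 0.731). A second Rpa1 probe of similar brightness gave -0.52, and the mean of both probes gave -0.39 (limma adjusted p = 0.487). Rpa2 was at 0.01 ± 0.24 (SE), and at -0.04 with each array centred on its median. These proteins also act in DNA repair outside S phase.

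The chromatin assembly factor genes, whose products deposit histones behind the fork, were both lower at an unadjusted p under 0.05. That held for 8.97% of all genes. Chaf1b had 4.88, 4.97 and 4.46 in old tumour-bearing mice and 4.63, 4.54, 4.82, 4.86 and 4.64 in old cancer-free mice. In young tumour-bearing mice it had 5.04, 5.68 and 5.15, and in young cancer-free mice 4.95, 5.05 and 5.42. One old array, at 4.97, passed one young array, at 4.95, and otherwise the ages were apart. The difference was -0.48 ± 0.15 (SE, limma adjusted p = 0.195), and that of Chaf1a was -0.66 ± 0.23 (SE).

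Of the 5 genes of deoxynucleotide supply, 3 were lower at an unadjusted p under 0.05, against 8.97% of all genes. The median of the 5 was -0.70, and they include the gene with the most negative difference of the 39. Rrm2, the small subunit of ribonucleotide reductase, which is made in S phase and limits the enzyme, had 3.85, 5.84 and 6.56 in old tumour-bearing mice and 6.04, 6.32, 6.83, 3.96 and 5.01 in old cancer-free mice. It had 6.68, 6.60 and 7.33 in young tumour-bearing mice and 7.10, 7.15 and 7.01 in young cancer-free mice. Old arrays spread over almost 3 log2 units and young arrays over less than 1, and only old cancer-free replicate 3 entered the young range. Its values are shown because of that difference, -1.46 ± 0.46 (SE, limma adjusted p = 0.208), and its second probe gave -0.95.

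Rrm1, the large subunit, had 6.13, 5.91 and 7.01 in old tumour-bearing mice and 6.83, 6.70, 6.70, 7.06 and 5.98 in old cancer-free mice. Young tumour-bearing mice had 6.51, 7.07 and 7.41, and young cancer-free mice had 7.89, 7.54 and 7.68. The young cancer-free arrays were above all the rest, and the young tumour-bearing arrays were mixed with the old. The difference was -0.85 ± 0.22 (SE, limma adjusted p = 0.124). Dut, which clears dUTP, was at -0.70 ± 0.25 (SE), Tyms, the thymidylate synthase, at -0.53 ± 0.26 (SE) and Tk1, the thymidine salvage kinase, at -0.31 ± 0.20 (SE), and of these only Dut had an unadjusted p under 0.05. A second Dut probe, dim at a mean level of 2.19, gave 0.01.

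The last role, fork repair and cohesion, held dim genes: Esco2, Brca2 and Brca1 each had a group mean under 3.88, as did Gins1, so the sizes of their differences are uncertain. Esco2, the acetyltransferase that locks cohesin onto newly copied chromatids, had 3.46, 3.46 and 3.20 in old tumour-bearing mice and 3.56, 4.0, 3.69, 3.24 and 3.45 in old cancer-free mice. Its levels were 3.35, 4.06 and 3.79 in young tumour-bearing mice and 4.55, 4.62 and 4.51 in young cancer-free mice. All arrays were above 3.88 in the young cancer-free mice alone. Elsewhere only old cancer-free replicate 2 and young tumour-bearing replicate 2 were above it. Esco2 thus passed the filter of 3 arrays only through the group where it was high, which limits every comparison with that group. The averaged difference was -0.67 ± 0.15 (SE, limma adjusted p = 0.0874). Brca1 was at -0.37 ± 0.28 (SE) and Brca2 at -0.29 ± 0.15 (SE), and their products protect stalled forks.

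**Figure D2:**
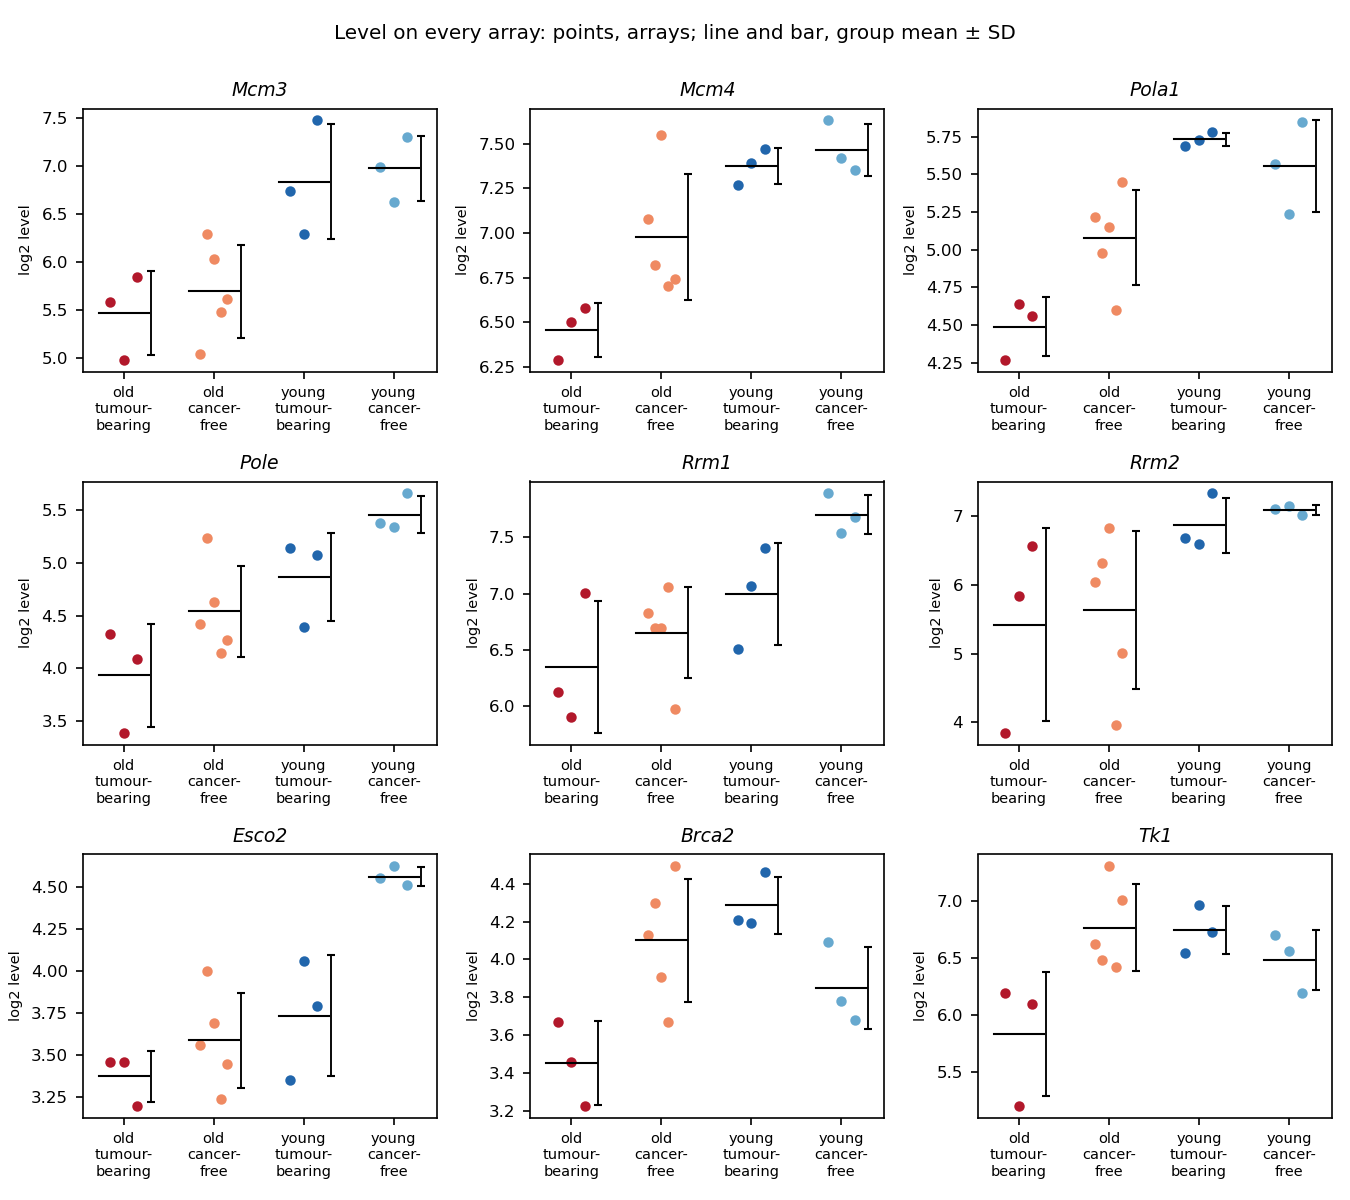
Log2 level of 9 replication genes on each array (points), with the mean (line) and SD (bar) of each group, on an axis that starts at a different level for each gene. Mcm3 averaged 5.47 and 5.69 in old tumour-bearing and old cancer-free mice, against 6.83 and 6.97 in young tumour-bearing and young cancer-free mice, while Esco2 was high in young cancer-free mice (4.56) and Tk1 low in old tumour-bearing mice (5.83).

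E2F factors bind short GC-rich sequences near the starts of many replication genes, so the promoters of the genes above were read for these letters. RefSeq promoter entries on the mouse build GRCm38.p6 (250 bases before to 50 after the start) were found for 32 of the 40 genes, with 36 entries. The letters searched on both strands were TTTCCCGC, TTTCGCGC, TTTGCCGC and TTTGGCGC. They were present in 13 of the 32 genes (40.6%) and in 575 of 17492 protein-coding genes (3.29%). Among the genes lower in old mice at an unadjusted p under 0.05 they were present in 9 of 20 (45.0%), and among the others tested in 4 of 11 (36.4%), and this difference was not tested. The CCAAT box, searched as CCAAT on both strands, was present in 62.5% of these genes and 42.3% of all. The cell cycle homology region typical of mitotic genes, searched as TTTGAA and TTCGAA on both strands, was present in 15.6% of these genes and 20.2% of all. Of the 19 E2F matches, 4 overlapped another E2F match and 1 shared a base with a CCAAT box. A match is a description of the letters, not a site or a cause.

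The 4 genes with the smallest p for age whose entry holds an E2F match are shown to place those letters, which are in capitals. Pola1 is from chrX:93632256-93632323, Mcm3 from chr1:20820263-20820372, Clspn from chr4:126556920-126557029 and Mcm7 from chr5:138171834-138172078. All are given 5′ to 3′ along the gene, Clspn on the plus strand and the other three on the minus strand.
Pola1: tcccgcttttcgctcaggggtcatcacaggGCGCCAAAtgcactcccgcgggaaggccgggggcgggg
Mcm3: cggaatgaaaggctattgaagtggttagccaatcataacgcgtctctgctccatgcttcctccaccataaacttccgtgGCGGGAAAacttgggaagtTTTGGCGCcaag
Clspn: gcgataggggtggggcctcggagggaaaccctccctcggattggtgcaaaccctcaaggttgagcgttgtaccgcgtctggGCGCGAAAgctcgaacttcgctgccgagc
Mcm7: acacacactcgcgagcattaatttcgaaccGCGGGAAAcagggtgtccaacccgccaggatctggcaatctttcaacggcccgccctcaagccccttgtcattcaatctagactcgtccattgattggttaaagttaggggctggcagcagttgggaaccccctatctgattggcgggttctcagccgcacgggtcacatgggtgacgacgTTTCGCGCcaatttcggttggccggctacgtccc
Mcm3 and Mcm7 hold 2 matches each and Pola1 and Clspn 1. Those of Mcm3 and Clspn lie within the 50 bases after the start, and that of Pola1 lies before it. Rrm2, Rrm1, Chaf1b, Chaf1a and Pcna, which were also lower in old mice at an unadjusted p under 0.05, held none of these letters in the window.

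The age difference was then read in each host state by itself. The differences come from arrays that the other state does not share. The p-values use a single estimate of each gene's spread over all 14 arrays, so the counts in the states are not independent of each other. In tumour-bearing mice, old against young, 38 of 39 genes had a negative difference, with a median of -0.57 (all genes 0.00). At an unadjusted p under 0.05, 15 were lower and 0 were higher, against 6.35% of all genes lower and 3.75% higher. Every old array lay below every young array for 12 genes, as for 7.10% of all genes. In cancer-free mice 36 of 39 were negative, with a median of -0.49 (all genes -0.04). There 19 were lower and 0 higher at an unadjusted p under 0.05, against 5.17% lower and 2.48% higher among all genes, and 12 genes had no overlap, against 4.40% of all genes. Esco2 is in both counts and had passed the filter on dim genes only through its young cancer-free arrays. No gene of the 39, and 0 of 13805 in all (0%), passed an adjusted p of 0.05 in limma in either state.

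The genes behind these counts were partly different. The 6 genes lower at an unadjusted p under 0.05 in both states were Mcm3, Mcm4, Clspn, Pola1, Pole and Chaf1b, which is 40% of the 15 in tumour-bearing mice and 31.6% of the 19 in cancer-free mice. Of all genes, 172 were lower in both at that level (1.25%). Mcm3, Pole, Chaf1b and Rrm2, 4 of the 39, had every old array below every young array in both states, as 117 of all genes did (0.848%).

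In tumour-bearing mice the smallest p-values belonged to Pola1, at -1.24 ± 0.23 (SE, limma adjusted p = 0.0778), and Mcm4, at -0.92 ± 0.22 (SE, adjusted p = 0.184). Pola1 averaged 4.49 ± 0.19 in old and 5.73 ± 0.04 in young tumour-bearing mice (SD, n = 3 each). In cancer-free mice they belonged to Esco2, at -0.98 ± 0.20 (SE, limma adjusted p = 0.393), and Mcm3, at -1.28 ± 0.32 (SE, adjusted p = 0.476). Of these, Esco2 had passed the filter on dim genes only through its young cancer-free arrays. The 9 genes lower at that level in tumour-bearing mice alone included Cdt1, Orc6, Mcm7, Cdc45, Pcna, Lig1 and Tk1. The 13 in cancer-free mice alone included Cdc6, Mcm5, Mcm6, Prim1, Prim2, Rrm1, Rrm2 and Tyms. A gene below the threshold in one state and not in the other is not thereby shown to differ between states, and the test of that difference follows with the tumour comparisons.

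Each of these counts rested on few young or old arrays. For tumour-bearing mice it was 8 without old tumour-bearing replicate 2 and 9 without young tumour-bearing replicate 3, and for cancer-free mice it was 9, 12 and 8 without young cancer-free replicates 1, 2 and 3. With all arrays, 6.35% of all genes were lower in tumour-bearing and 5.17% in cancer-free mice. The median of the 39 differences stayed between -0.81 and -0.48 in tumour-bearing mice and between -0.61 and -0.42 in cancer-free mice over 24 alternatives each.

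**Figure D3:**
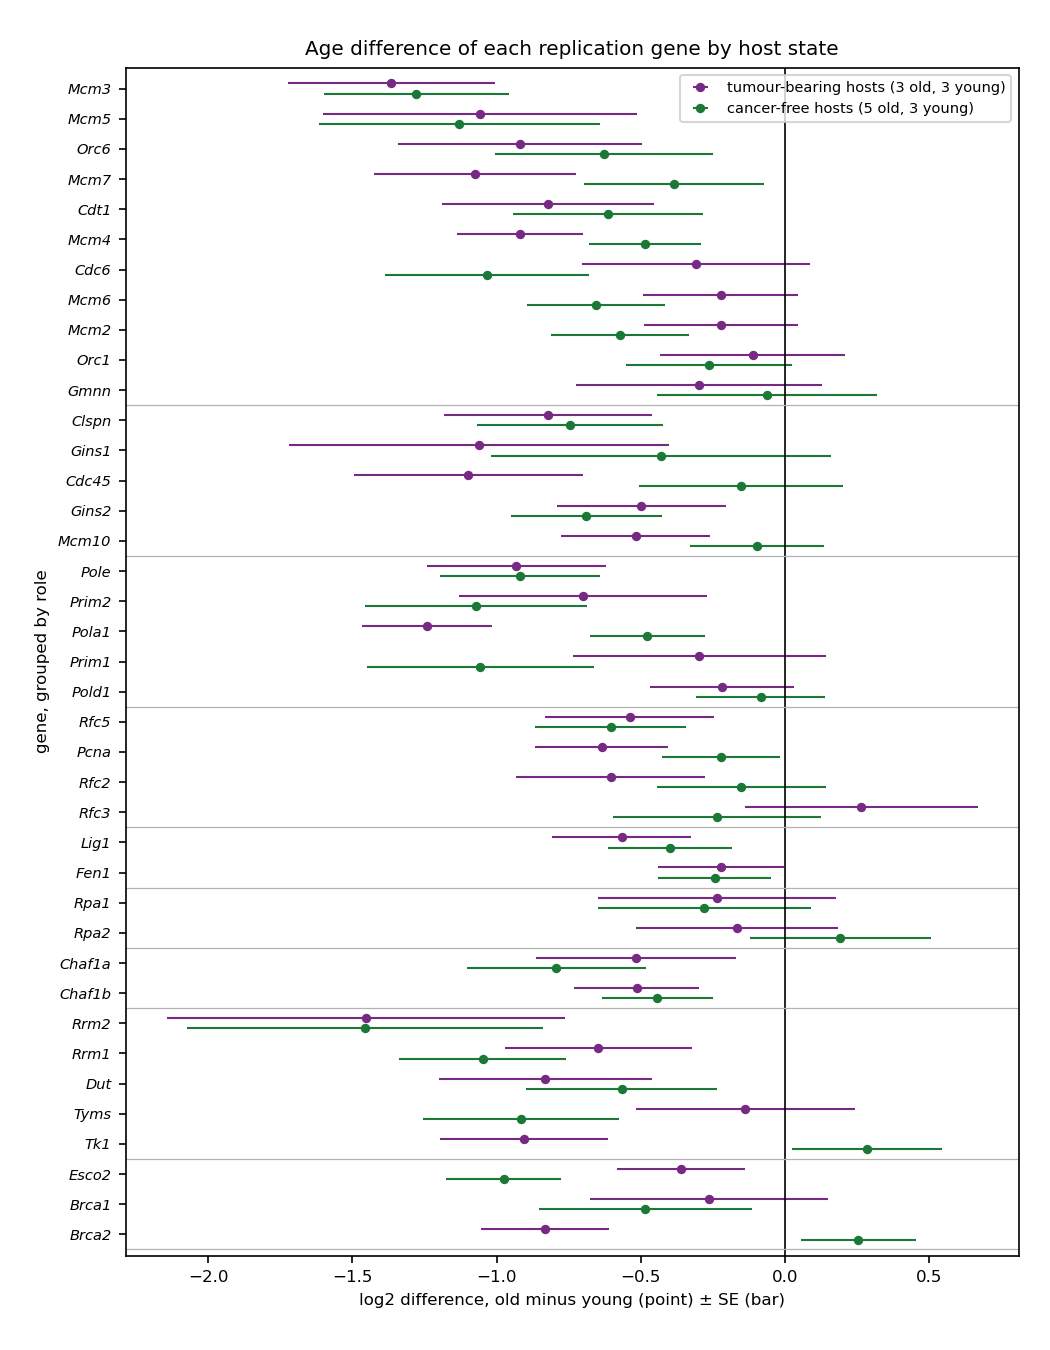
Log2 difference between old and young mice (point) with its SE (bar) for each replication gene, in tumour-bearing mice (3 old, 3 young) and in cancer-free mice (5 old, 3 young). Nearly all points lie left of zero in both host states, while Tk1, Brca2 and Rpa2 lie left of zero in tumour-bearing mice and right of it in cancer-free mice. Rfc3 lies the other way, at 0.26 in tumour-bearing and -0.24 in cancer-free mice.

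Between tumour-bearing and cancer-free mice no replication gene passed the adjusted threshold. Averaged over the ages, 28 of 39 genes had a negative difference and the median was -0.21 (all genes -0.01). At an unadjusted p under 0.05, 4 were lower (Esco2, Pole, Rrm1 and Gins2) and 1 was higher (Clspn, at 0.52), against 6.01% of all genes lower and 4.23% higher. Of all genes 0% passed an adjusted p of 0.05. The smallest p-values were those of Esco2, at -0.52 ± 0.15 (SE, limma adjusted p = 0.337), and Pole, at -0.60 ± 0.21 (SE, adjusted p = 0.396). Esco2 was tested only because its young cancer-free arrays passed the filter on dim genes. The count of lower genes was 2 when young tumour-bearing replicate 1, young cancer-free replicate 1 or 3, or the old cancer-free array numbered 1 was left out, and 7 without old tumour-bearing replicate 3.

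In old mice, tumour-bearing against cancer-free, 31 of 39 genes had a negative difference, with a median of -0.21 (all genes 0.01). There 6 genes were lower at an unadjusted p under 0.05 and 0 were higher, against 5.56% and 4.20% of all genes. The arrays of 3 genes, Tk1, Brca2 and Mcm4, did not overlap, as for 3.04% of all genes, and none passed an adjusted p of 0.05 (0% of all genes). Tk1 had 6.19, 5.21 and 6.10 in old tumour-bearing mice, against 6.62, 6.48, 7.30, 6.42 and 7.01 in old cancer-free mice. Its difference was -0.93 ± 0.26 (SE, limma adjusted p = 0.3). In young mice the groups overlapped, with 6.54, 6.96 and 6.73 in tumour-bearing and 6.70, 6.56 and 6.19 in cancer-free mice.

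Brca2 had 3.67, 3.46 and 3.23 in old tumour-bearing mice, against 4.13, 4.30, 3.91, 3.67 and 4.49 in old cancer-free mice. These values straddle 3.88, the median of the table, and the highest tumour-bearing array and the lowest cancer-free array are equal to 2 decimals. The difference was -0.65 ± 0.20 (SE, limma adjusted p = 0.354). Pola1, at -0.58 ± 0.20 (SE), Mcm4, at -0.52 ± 0.20 (SE), Pole and Pcna were the other 4 of the 6.

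In young mice, tumour-bearing against cancer-free, the differences were divided, 24 negative and 15 positive, with a median of -0.13 (all genes -0.02). At an unadjusted p under 0.05, 3 genes were lower (Esco2, Tyms and Rrm1) and 1 was higher (Cdc45), which is 7.69% of the 39 lower, against 3.30% of all genes lower and 2.10% higher. Arrays did not overlap for 5 genes that were lower and 2 that were higher, against 7.37% and 5.56% of all genes, and none passed an adjusted p of 0.05 (0% of all genes). Esco2 was at -0.83 ± 0.22 (SE, limma adjusted p = 0.886), with 3.35, 4.06 and 3.79 in young tumour-bearing mice against 4.55, 4.62 and 4.51 in young cancer-free mice. Only through the latter arrays did it pass the filter on dim genes. Cdc45, part of the active helicase, had 6.72, 4.93 and 6.51 in young tumour-bearing mice, against 5.57, 5.07 and 4.85 in young cancer-free mice. Replicate 2 lay with the cancer-free arrays, and the difference was 0.89 ± 0.40 (SE, limma adjusted p = 0.886). The old arrays held Cdc45 at 4.97, 4.84 and 5.06 with a tumour and at 5.40, 5.42, 4.79, 5.0 and 4.46 without. The count of 3 lower genes was 1 when young tumour-bearing replicate 1, young cancer-free replicate 1 or 2, or the old cancer-free array numbered 1 or 3 was left out.

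The tumour difference in old mice minus that in young mice tests both whether the tumour effect depends on age and whether the age difference depends on the host. It was negative for 21 genes and positive for 18, with a median of -0.07 (all genes 0.02). At an unadjusted p under 0.05, 3 genes were lower, Brca2 at -1.08 ± 0.30 (SE), Tk1 at -1.19 ± 0.39 (SE) and Pola1 at -0.76 ± 0.30 (SE), and 0 were higher, against 1.85% and 2.57% of all genes. Their limma adjusted p was 0.976 each, and 0% of all genes passed. For Brca2 the young arrays went the other way, with 4.21, 4.19 and 4.46 in tumour-bearing mice and 4.09, 3.78 and 3.68 in cancer-free mice.

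**Figure D4:**
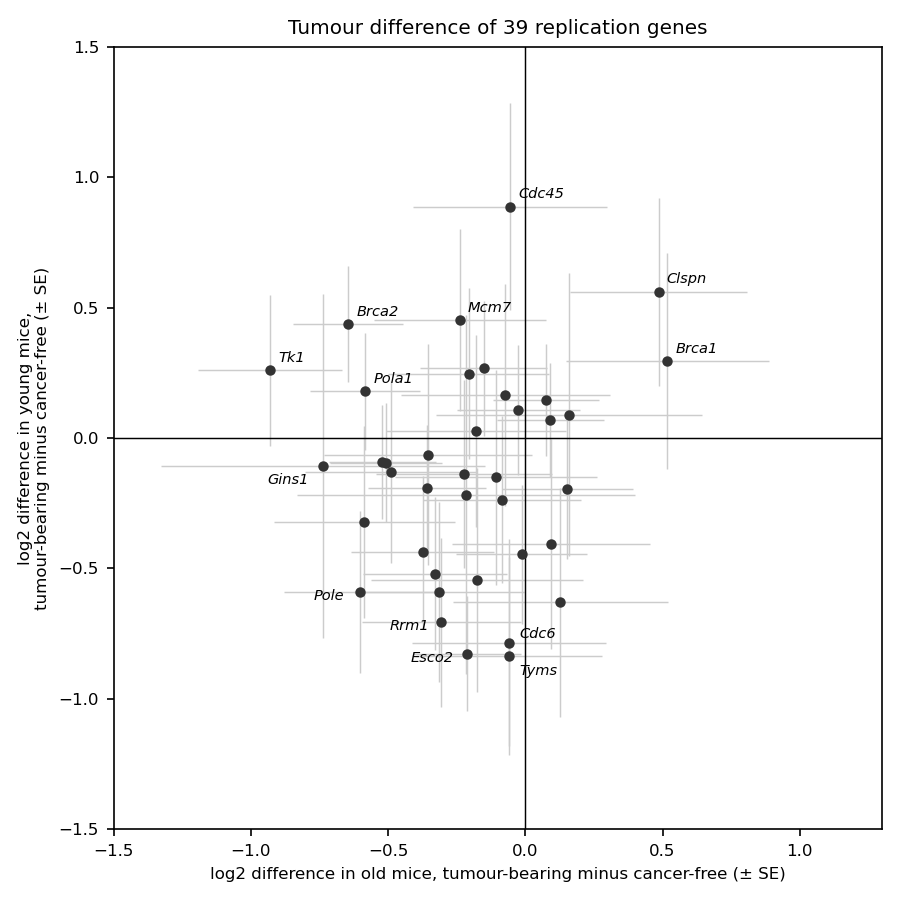
Log2 difference between tumour-bearing and cancer-free mice for the 39 replication genes in old mice (x axis) and in young mice (y axis), each with its SE. Tk1 and Brca2 are furthest left at positive values in young mice, Esco2 and Tyms are lowest and Cdc45 is highest.

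Other cell cycle genes were read from separate lists. For the averaged age comparison used here, 8.97% of all genes were lower at an unadjusted p under 0.05. A negative difference was found for 52.0% of all genes, and their median was -0.01. Mitosis genes act after S phase, and all 19 measured of 20 were lower in old mice at an unadjusted p under 0.05, with a median of -1.09. Of them Kif23, a kinesin of cytokinesis, at -1.66 ± 0.24 (SE, limma adjusted p = 0.0308), and Nuf2, a kinetochore protein, at -1.57 ± 0.27 (SE, adjusted p = 0.0497), passed. Mki67, the proliferation antigen, was at -1.53 ± 0.29 (SE) and did not pass (adjusted p = 0.0601). The mean level of this list was 4.62 to 5.38 in old tumour-bearing, 4.61 to 6.03 in old cancer-free, 6.25 to 6.52 in young tumour-bearing and 6.08 to 6.46 in young cancer-free mice. The median was -1.26 in tumour-bearing and -0.95 in cancer-free mice, old against young. Among 38 further replication genes measured of 40, outside the 39, 31 had a negative age difference and 7 were lower at an unadjusted p under 0.05, with a median of -0.29. Those with the smallest p were Ticrr, which helps origins fire and was dim, at -1.18 ± 0.27 (SE), Pole2, the second subunit of polymerase epsilon, at -0.85 ± 0.21 (SE), and Wdhd1, a fork protein, at -0.61 ± 0.17 (SE), and none passed.

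Markers of cell types that the sort can hold were read in the same way, and of all those named here Itgam alone passed an adjusted p of 0.05 in limma. For the averaged age comparison, 8.97% of all genes were lower and 4.44% higher at an unadjusted p under 0.05, and 52.0% had a negative difference. At an unadjusted p under 0.05, 10 of 14 measured markers of plasmacytoid dendritic cells, the interferon-producing cells of marrow, were lower in old mice, with a median of -1.06. Their mean level was 6.06 to 6.33 in old tumour-bearing, 5.73 to 7.01 in old cancer-free, 6.93 to 7.81 in young tumour-bearing and 6.76 to 7.78 in young cancer-free mice. Cox6a2 was at -1.57 ± 0.31 (SE), Tlr7 at -1.13 ± 0.26 (SE) and Siglech at -1.46 ± 0.34 (SE). Of 9 monocyte and macrophage markers 5 were lower, with mean levels of 6.27 to 6.87 in old tumour-bearing, 6.30 to 7.29 in old cancer-free, 6.90 to 7.24 in young tumour-bearing and 6.92 to 7.42 in young cancer-free mice, among them Itgam, at -0.96 ± 0.15 (SE), which passed (limma adjusted p = 0.0387). T cell markers were higher in old mice at that level for 5 of 10, with a median of 0.77. In tumour-bearing mice 6 of 10 were higher, against 3.75% of all genes, with a median of 1.28. In cancer-free mice 0 of 10 markers were higher, against 2.48% of all genes, with a median of 0.10. They had a mean level of 7.77 to 8.09 in old tumour-bearing, 7.23 to 8.19 in old cancer-free, 6.61 to 7.33 in young tumour-bearing and 7.33 to 8.21 in young cancer-free mice. Kit was at -0.50 ± 0.20 (SE, limma adjusted p = 0.314), old minus young. Of 13 granulocyte markers 11 had a negative difference, with a median of -0.53, and 1 was lower at that level. Markers lower at that level numbered 0 of 7 for B cell progenitors, 1 of 5 for erythroid cells, 2 of 7 for stem and progenitor cells and 0 of 7 for stromal and endothelial cells, whose mean level lay at 3.94 to 4.35, near the table's median. The part of these markers in the age difference of the replication genes was not tested.

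**Figure D5:**
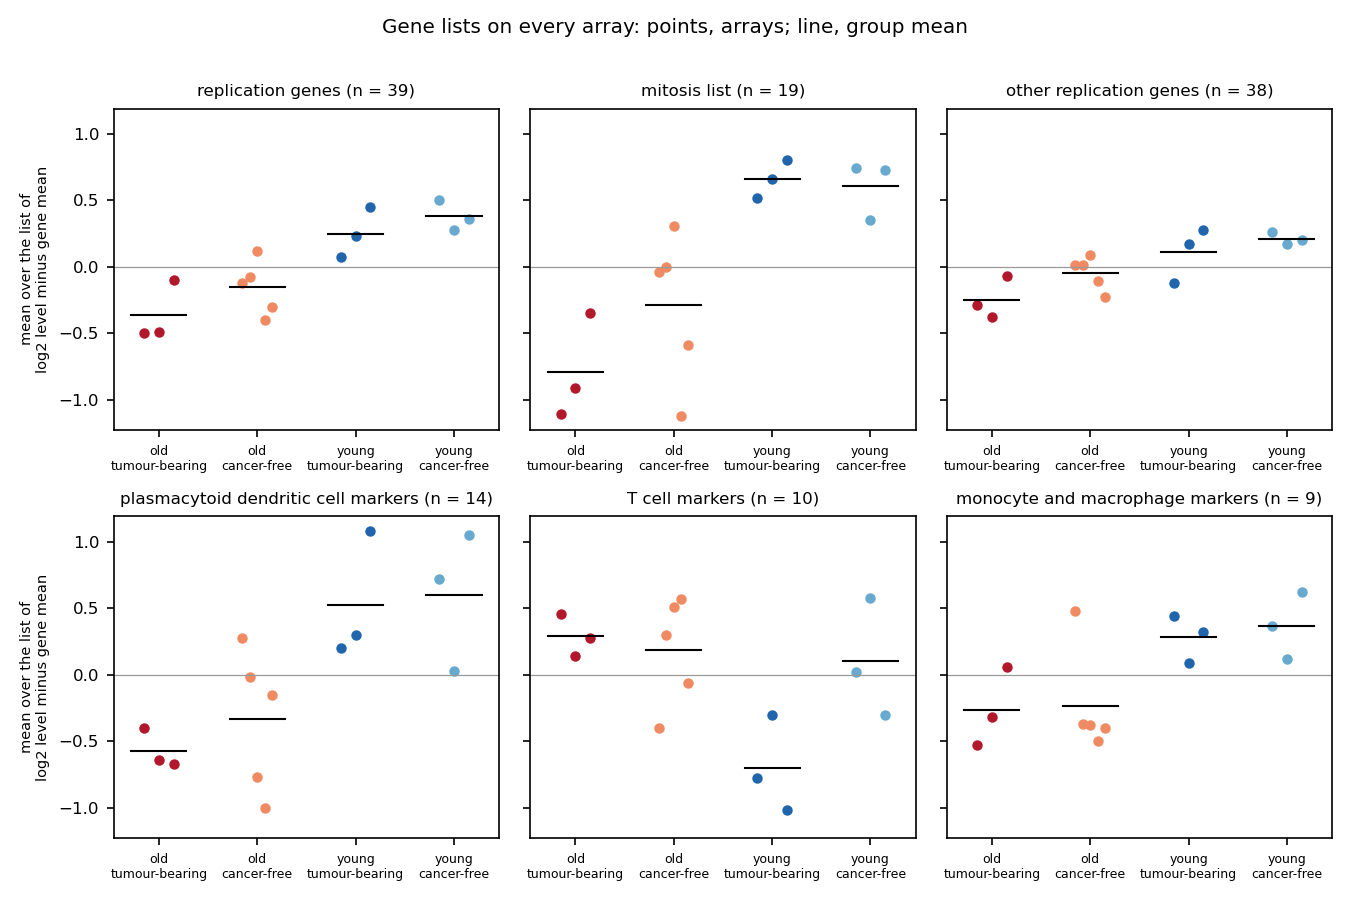
Mean over each gene list of the log2 level minus the gene's mean, for each array (points) with the group mean (line). Mitosis genes span -1.12 to 0.31 on old and 0.35 to 0.80 on young arrays, replication genes -0.50 to 0.12 on old and 0.07 to 0.50 on young arrays, and T cell markers are lowest in young tumour-bearing mice.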

How the data were processed

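Sca1+/cKit- bone marrow cells of 14 mice were profiled on 1-colour arrays. Per the submitters' processing notes, the authors made the deposited log2 values by RMA in oligo 1.32.0 under R 3.2.0. The sources used here do not say which arrays were normalised together. Groups were taken from the sample titles. Of 41345 probes, 23521 were annotated to a single gene, and the brightest probe on average stood for each of 22180 genes. Those exceeding the table's median (3.88) on 3 or more arrays were tested (13805). A model of the 4 group means was fitted with limma 3.58.1 (R 4.3.3), using moderated variances, 7 two-sided contrasts and Benjamini-Hochberg adjustment over all genes tested within each contrast. The averages weight both host states, or both ages, equally. The fit was tested on simulated data.

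The genes, roles and lists were chosen with earlier results of these data known. Values on every array are given for the 8 genes with the smallest p in the averaged age comparison, for the smallest p in each role and for the 2 smallest in each other comparison. Of other lists, up to 3 genes with the smallest p were named. Rrm2, for its size of difference, and Kit and Ptprc, for the identity of the cells, fall outside this rule. Same-numbered replicates of different groups did not deviate together: over 18 pairs the correlation was -0.08 to 0.09. The number of arrays limits the precision of every difference. No batch is labelled. Alternatives were the filter, the scaling, probe averaging, a variance trend, array weights, fewer groups, a block for the replicate number, and leaving out single arrays.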

Additional observations from a re-analysis of the deposited data

Results flagged for a closer look

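Within the 5 old cancer-free mice, the levels of the 39 replication genes were searched for a single array far from the other 4. The gap to the nearest array, divided by the range, was compared with Dixon's critical value of 0.71, which chance alone exceeds in about 1 of 20 groups, or 1.95 of 39 genes. It was exceeded by 4 genes. Mcm5 was low on replicate 3 at 5.17, with the next at 5.68 and the highest at 5.87 (0.73 of the range). Replicate 3 was high for Mcm6 at 7.97, with the next at 7.41 (0.87 of the range), and for Clspn at 5.20, with the next at 4.41 (0.73 of the range). Rpa1 was low on replicate 1 at 5.03, with the next at 6.60 (0.81 of the range).

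Among the replication genes, Brca2 alone had arrays that separated with the tumour in opposite directions at the 2 ages. Every old tumour-bearing array lay below every old cancer-free array, and every young tumour-bearing array lay above every young cancer-free array. In old mice the nearest arrays were equal to 2 decimals, at 3.67. Of all genes, 3.04% separated as lower in old mice and 5.56% as higher in young mice. The share that did both was not counted. The difference of the tumour effects was -1.08 ± 0.30 (SE), which did not pass in limma (adjusted p = 0.976), and Brca2 lay close to the median of the table.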

How the results depend on the processing

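Over 23 alternatives the median age difference of the 39 genes stayed between -0.68 and -0.51, and the lower genes at an unadjusted p under 0.05 numbered 19 of 28 with the filter at the upper quartile (5.48) and up to 27 of 39 in the others. Of all genes 12.3% were lower with that filter and 6.47% to 12.4% in the others. Replication genes past an adjusted p of 0.05 for age, 0 as reported, numbered 3 with each array centred on its median, 4 with array weights, 3 without the 2 least correlated arrays (an alternative chosen after seeing the data) and 0 to 4 with 1 array left out. For all genes the age split was 12.4% lower and 2.31% higher with each array centred on its median, and genes past the adjusted threshold, 12 as reported, numbered 80 with that centring, 57 with array weights, 43 without the 2 least correlated arrays and 74 without old tumour-bearing replicate 3. With the replicate number as a block, 8 genes were lower for age in cancer-free mice and 8 for the averaged tumour comparison, and no other count moved by more than 1.5 times for these genes, while 0 of all genes passed for age. With 1 array left out the lower genes numbered 8 to 19 for age in cancer-free mice, 8 to 17 for age in tumour-bearing mice, 2 to 7 for the averaged tumour comparison and 1 to 3 for the tumour in young mice. In the main fit 5.17%, 6.35%, 6.01% and 3.30% of all genes were lower, in that order, and the alternatives' shares were not compared. The lowest of these tumour counts, 2 and 1 of 39, do not exceed the main shares. The averaged tumour comparison gave 1 lower gene with the upper-quartile filter and 2 with cyclic loess, and the tumour in young mice gave 1 with the upper-quartile filter, 1 with cyclic loess and 1 without the 2 least correlated arrays. Without those arrays the median age difference in tumour-bearing mice was -0.81. The sign of the averaged age difference turned for 3 genes near zero: Gmnn, at -0.36 to 0.10 with 1 array left out, Rfc3, at -0.04 with centring, -0.12 with weights, -0.27 without the 2 arrays and -0.17 to 0.15 with 1 left out, and Rpa2, at -0.04 with centring, -0.08 with weights, -0.01 with the block, -0.18 without the 2 arrays and -0.15 to 0.16 with 1 left out. The cause was not tested. Fitting only the groups compared gave no value for the averages, which need all groups.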
